A study of Mus musculus with 14 samples.

Results

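The semaphorins, netrins, Slits and ephrins are the 4 classical systems of axon guidance cues, and their receptors are the plexins and neuropilins, Dcc and the Unc5 proteins, the Robo proteins and the Eph kinases. The genes described here are those whose symbol belongs to 1 of these families, 71 of the 56941 genes in the deposited tables. They comprise 31 genes of the semaphorin system, 11 of the netrin system, 7 of the Slit-Robo system and 22 of the ephrin-Eph system, or 37 ligands and 34 receptors by name. All 71 passed the filter on low counts (filterByExpr) used in the edgeR fits; a stricter alternative, a mean of at least 1 CPM, leaves out members of low level such as Epha1 and Ntn5 at E18.5.

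RNA was sequenced from embryonic mouse forebrain at 2 stages, the telencephalon of embryos aged 12.5 days (E12.5) and the cerebral cortex of embryos aged 18.5 days (E18.5). Animals with floxed Sbno1 and floxed Trp53 alleles alone (ff) were compared with animals in which these alleles were combined with the Emx1-Cre driver (double conditional knockout, dcKO), with 3 libraries of each genotype at E12.5 and 4 of each at E18.5. Sbno1 is related to the Drosophila regulator strawberry notch, Trp53 is the gene of p53, and Emx1-Cre is active in the progenitors of the dorsal telencephalon, so that cells born elsewhere keep intact floxed alleles. The floxed alleles were shared by both genotypes, and no group with the driver alone or with a single deletion was analysed here, so what the driver does and what each deletion does cannot be told apart. Whether each library came from 1 embryo was not stated, and p-values then measure only the spread between these libraries.

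Guidance cues steer the growth cone of an extending axon by attraction or repulsion, either after secretion, as for class 3 semaphorins, netrins and Slits, or on the surface of neighbouring cells, as for ephrins and most other semaphorins. In the developing cortex the same molecules also act on progenitors and on migrating neurons, and corpus callosum, corticofugal and thalamocortical axons each depend on several of them. Secreted class 3 semaphorins signal through a neuropilin that holds the ligand and a plexin that transmits the signal, netrin 1 through Dcc and Unc5 receptors, Slits through Robo receptors, and ephrins through Eph kinases of the matching A or B class, with some exceptions.

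In 1e+06 expected counts, library totals were 42.04 to 81.96 in 12 libraries, 4.92 in E12.5 ff No9 and 5.98 in E18.5 dcKO No2 (library numbers are those of the table columns). By Xist and chromosome Y genes, all dcKO libraries were male, and 1 E12.5 ff and 2 E18.5 ff libraries were female. Sbno1 spanned 95.3 to 113 CPM (counts per 1e+06 counts of the library, on 1 scale for all 14) in ff and 65.3 to 76.5 CPM in dcKO at E12.5 (adjusted p = 0.051, edgeR). At E18.5 it spanned 73.0 to 76.5 CPM in ff and 66.6 to 74.6 CPM in the libraries labelled dcKO (log2 fold change -0.03, adjusted p = 0.68, edgeR). Trp53, the other targeted gene, spanned 105 to 136 CPM in ff and 103 to 108 CPM in dcKO at E12.5, with overlap (log2 fold change -0.23, adjusted p = 0.22, edgeR). At E18.5 Trp53 spanned 73.7 to 77.7 CPM in ff and 55.5 to 72.2 CPM in dcKO, without overlap (-0.20 ± 0.06, adjusted p = 0.032, edgeR). Since Sbno1 overlapped between the groups at this stage, dcKO below stands for the libraries labelled so. Emx1, the driver locus and a marker of dorsal progenitors, was lower in dcKO at both stages (E12.5 log2 fold change -0.96, adjusted p = 0.0083; E18.5 log2 fold change -0.81 ± 0.07 SE, adjusted p = 8.3e-06, edgeR). In E18.5 dcKO No12 the choroid plexus transcript Ttr stood at 0.943 CPM against 781.6 to 1721 CPM in the other 7 libraries of that stage.

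Genome sequence before the start of 3 members is printed here because these genes carried large differences between genotypes at E18.5: Sema3c fell most, and Efna3 and Efna4 are chromosomal neighbours that both fell. Each is the stretch of 250 bases before a RefSeq transcript start in build GRCm38.p6, read 5′ to 3′ on the strand of the gene, with the GC-box letters GGGCGG in capitals on either strand (CCGCCC where it lies on the other strand). The windows are chr5:17574566-17574815 (plus strand), chr3:89322940-89323189 (minus) and chr3:89338029-89338278 (minus), each ending at the start of the RefSeq gene, and the Efna3 window is 1 of 2 listed for that gene.
Sema3c: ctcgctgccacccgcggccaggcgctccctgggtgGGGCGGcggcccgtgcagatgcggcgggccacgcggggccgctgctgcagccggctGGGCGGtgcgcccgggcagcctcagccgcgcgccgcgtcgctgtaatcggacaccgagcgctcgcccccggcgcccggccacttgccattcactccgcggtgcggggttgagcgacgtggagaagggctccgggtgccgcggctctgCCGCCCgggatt
Efna3: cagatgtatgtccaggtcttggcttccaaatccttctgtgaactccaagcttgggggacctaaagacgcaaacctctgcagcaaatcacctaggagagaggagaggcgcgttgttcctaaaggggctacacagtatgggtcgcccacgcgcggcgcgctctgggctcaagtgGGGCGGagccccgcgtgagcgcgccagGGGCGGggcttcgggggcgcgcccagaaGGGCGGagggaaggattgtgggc
Efna4: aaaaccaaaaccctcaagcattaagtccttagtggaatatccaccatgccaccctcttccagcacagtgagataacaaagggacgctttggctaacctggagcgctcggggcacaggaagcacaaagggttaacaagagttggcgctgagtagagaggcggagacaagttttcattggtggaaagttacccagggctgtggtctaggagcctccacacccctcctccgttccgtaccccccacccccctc

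The Sema3c and Efna3 windows each held 3 GC-box matches and that of Efna4 held 0. The letters TATAAA were found in none of the 3. They ranged from 54.4% G and C with 7 CpG dinucleotides in Efna4 to 78.4% with 39 CpG in Sema3c. Promoter windows were listed for 61 of the 71 members, 77 windows in all, some of them before a later start within the gene. Of these 70.1% held a GC-box match, against 32.7% of all 32851 windows, 2.6% held TATAAA, against 12.4%, and the median number of CpG was 15 against 6. These matches are a description of letters and were not tested for any bearing on expression. Efna3 and Efna4 lie 10.5 kb apart on chromosome 3 and Efna1, which did not pass the test in either genotype comparison, lies 32.9 kb beyond Efna3.

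At E18.5 the guidance families split between the genotypes: 16 of 71 members were higher and 17 were lower in dcKO, while 38 did not pass the test (edgeR quasi-likelihood test, adjusted p under 0.05 over 17974 genes). Of all genes tested, 15.6% were higher and 16.6% lower, beside shares of 22.5% and 23.9% of the members. The median log2 fold change over the members was -0.01, against 0.03 over all genes. Among the called members the median size of the log2 fold change was 0.38, as it was over all called genes, and 8 of the 33 reached 1.5-fold. Groups did not overlap for 25 of the 71 members (35.2%, against 33.5% of all genes tested), among them 24 of the 33 called. In bulk tissue, fewer cells of a type and less RNA per cell cannot be told apart in any of these values. A limma test on log2(TPM + 1), with values per transcript length (TPM), which changes the scaling, the normalization and the test together, called 17 members higher and 7 lower (20.5% and 6.23% of all genes), while the median over all genes moved from 0.03 to 0.12. The length correction alone gave 15 higher and 20 lower (13.3% and 23.7% of all genes). With sex as a covariate, 12 members were higher and 13 lower (12.9% and 13.7% of all genes). No called member changed sign in any of the alternative analyses, and 13 remained called in all of them.

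**Figure D1:**
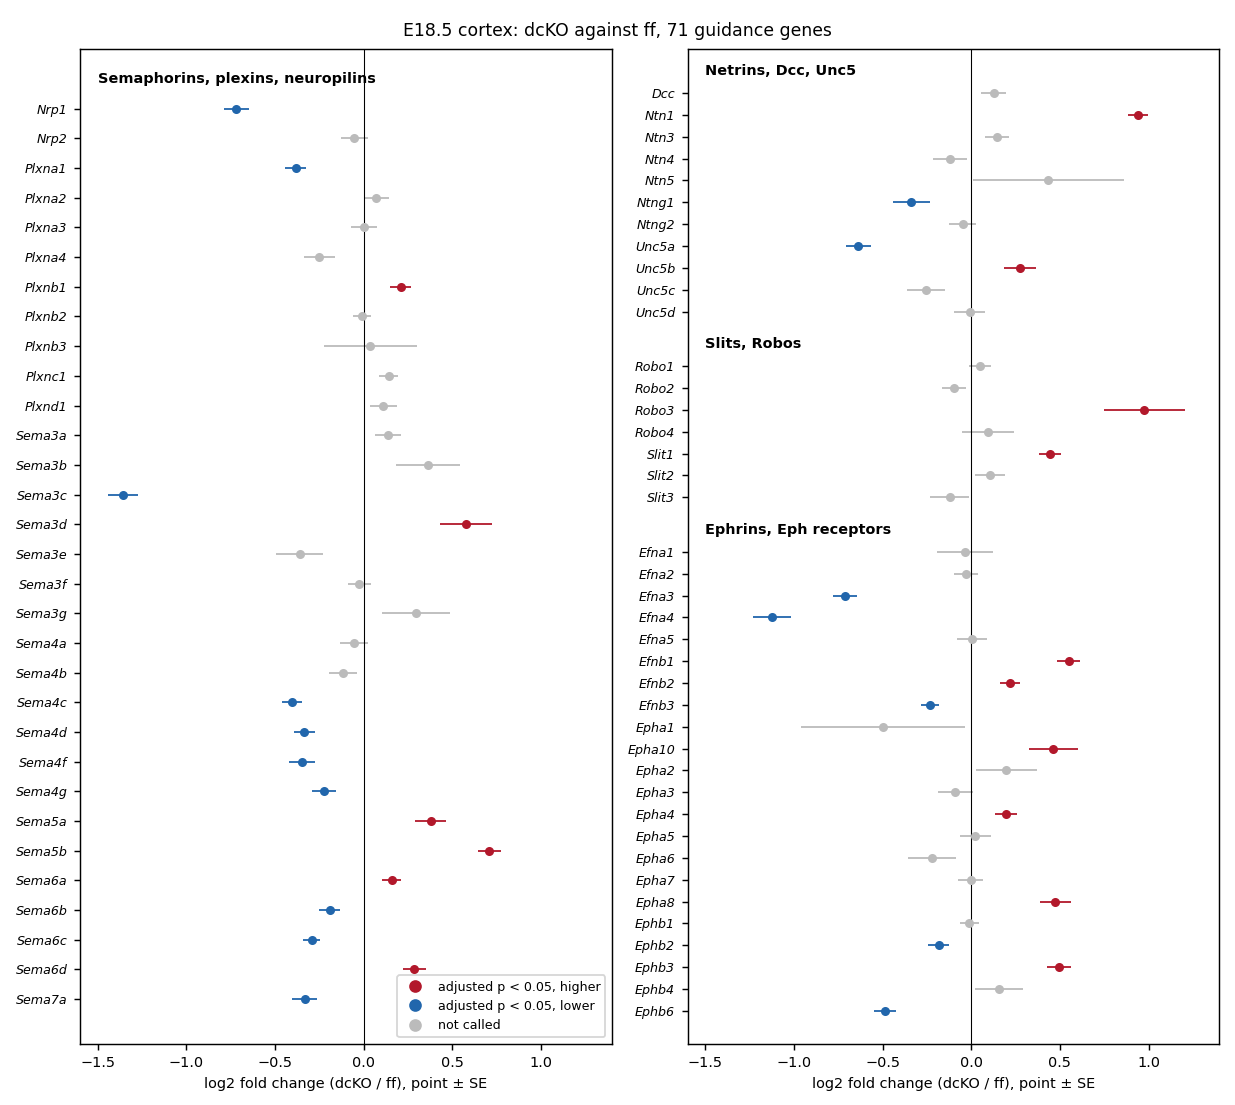
Log2 fold change of dcKO over ff at E18.5 for the 71 guidance genes, ordered by system, each point with its standard error from edgeR; red and blue points passed the test in either direction (16 and 17 genes) and grey points did not. Sema3c and Efna4 lie farthest to the left and Robo3 and Ntn1 farthest to the right.

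Among the secreted class 3 semaphorins, which are mostly repellents, Sema3c fell, Sema3d rose and the other 5 were not called. Sema3c, a cue for callosal axons that acts through neuropilins, measured 123, 124.98, 105 and 92.5 CPM in ff No7, No8, No17 and No18, and 37.9, 42.3, 44.4 and 42.9 CPM in dcKO No2, No3, No12 and No13, the library order used for E18.5 throughout. Every ff library lay far above every dcKO library. The difference was 2.56-fold (log2 fold change -1.36 ± 0.08 SE, adjusted p = 1.5e-06, edgeR) and was -1.38 without dcKO No12 and -1.34 without dcKO No2. Sema3d rose from a low level, 4.50, 6.47, 4.74 and 6.42 CPM in ff against 8.37, 8.95, 7.82 and 7.11 CPM in dcKO (log2 fold change 0.58 ± 0.14, adjusted p = 0.0092, edgeR), with no overlap, but was not called in 1 fit of all 14 libraries (adjusted p = 0.091). Sema3a, the founding class 3 repellent, stood at 0.14 ± 0.07 on the log2 scale (adjusted p = 0.16), and Sema3e, a ligand of plexin D1, at -0.36 ± 0.13 (adjusted p = 0.056, edgeR).

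The membrane-bound semaphorins were called in both directions, in class 6 within the same class. Of the 6 genes of class 4, Sema4c, Sema4d, Sema4f and Sema4g fell and Sema4a and Sema4b were not called, with all 6 log2 fold changes between -0.40 and -0.06. Both class 5 genes rose. In class 6, ligands of plexins A, Sema6a and Sema6d rose and Sema6b and Sema6c fell; the call of Sema6a was lost on leaving out any of 6 libraries that of Sema6b any of 3, and that of Sema6d in 1 fit of all 14 libraries (adjusted p = 0.056). The GPI-anchored Sema7a, a ligand of plexin C1 and integrins, fell. Sema5b, a repellent of the cortical germinal zones, measured 40.4, 44.1, 40.4 and 42.7 CPM in ff and 57.8, 63.6, 74.3 and 68.9 CPM in dcKO. Every dcKO library lay above every ff library, by 1.63-fold in the fit (log2 fold change 0.71 ± 0.07 SE, adjusted p = 1.2e-05, edgeR). Its paralogue Sema5a, named as the other member of the class, rose by less and with overlap, 40.1, 51.9, 43.2 and 43.8 CPM against 49.9, 58.9, 63.6 and 52.2 CPM (0.38 ± 0.09, adjusted p = 0.0056). Sema4c fell from 114, 126, 109.6 and 112 to 75.2, 84.5, 90.5 and 86.6 CPM without overlap (-0.40 ± 0.06, adjusted p = 0.00022, edgeR). The call of Sema4g was lost with sex as a covariate and in the fit of 14 libraries. In the test on log2(TPM + 1) none of Sema4c (-0.22), Sema4d (-0.19), Sema4f (-0.21), Sema4g (-0.10), Sema6b (-0.08), Sema6c (-0.32) and Sema7a (-0.22) passed; the value of Sema6c was no smaller than its -0.29 in edgeR.

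On the receptor side of this system, 1 neuropilin and 1 plexin fell and 1 plexin rose. Nrp1, the co-receptor of several class 3 semaphorins and of VEGF, measured 128, 133, 107 and 108 CPM in ff and 68.0, 68.2, 75.1 and 69.3 CPM in dcKO, again without overlap. It fell 1.64-fold (log2 fold change -0.72 ± 0.07 SE, adjusted p = 1.7e-05, edgeR), whereas Nrp2 stood at -0.05 ± 0.08 (adjusted p = 0.62). Plxna1, a signalling partner of neuropilins, fell from 281, 288, 279 and 261 to 184, 197, 219 and 225 CPM (-0.38 ± 0.06, adjusted p = 0.00042, edgeR). Of the remaining plexins, Plxnb1 was higher by 0.21 ± 0.06 on the log2 scale with overlapping groups (adjusted p = 0.018, edgeR), lost on leaving out any of 5 libraries, and the other 7 were not called.

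In the netrin system, Ntn1 rose and the Unc5a receptor fell. Ntn1, the long-range cue best known for attracting commissural axons, measured 40.5, 42.6, 43.3 and 42.8 CPM in ff and 71.1, 82.04, 84.4 and 76.2 CPM in dcKO. The ff libraries lay close together and all dcKO libraries lay well above them, 1.92-fold in the fit (log2 fold change 0.94 ± 0.05 SE, adjusted p = 7.9e-07, edgeR). Unc5a, a receptor for netrin repulsion, fell without overlap from 72.9, 72.9, 64.8 and 68.3 to 37.3, 40.2, 46.2 and 48.9 CPM (-0.64 ± 0.07, adjusted p = 4.9e-05, edgeR). Unc5b was higher by 0.28 ± 0.09 with overlapping groups (adjusted p = 0.033, edgeR), a call lost on leaving out any of 5 libraries. Dcc, the attractive receptor of netrin 1, stood at 0.13 ± 0.07 (adjusted p = 0.20), and Unc5c and Unc5d were not called. Ntng1, a GPI-anchored netrin that binds a postsynaptic partner and not Dcc, fell from 12.8, 12.01, 10.2 and 10.2 to 7.91, 7.97, 9.74 and 8.89 CPM (-0.34 ± 0.11, adjusted p = 0.027, edgeR), a call lost on leaving out any of 4 libraries, and Ntng2 was not called. Lrrc4c and Lrrc4, the NGL partners of netrins G1 and G2 and not members of these families, were singled out after their values were seen: they fell by 0.35 and 0.40 on the log2 scale (adjusted p = 0.0019 and 0.0014, edgeR).

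In the Slit-Robo system only rises were called, in Slit1 and Robo3. Slit1, a repellent expressed by cortical neurons, measured 66.5, 73.3, 64.6 and 65.1 CPM in ff and 77.9, 86.3, 93.1 and 96.8 CPM in dcKO. The highest ff library lay below the lowest dcKO library (log2 fold change 0.44 ± 0.06 SE, adjusted p = 0.00017, edgeR). Slit2 and Slit3 stood at 0.11 ± 0.09 and -0.12 ± 0.11. Robo3, which keeps commissural axons from responding to Slits before they cross, was near the lower limit of detection, 0.991, 0.848, 1.34 and 0.828 CPM in ff and 1.67, 1.52, 2.10 and 2.28 CPM in dcKO. The groups did not overlap (0.98 ± 0.23, adjusted p = 0.0062, edgeR), and with sex as a covariate the call was lost (adjusted p = 0.057). Robo1 and Robo2, the main Slit receptors, stood at 0.05 ± 0.06 and -0.10 ± 0.07, and endothelial Robo4 was not called.

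In the ephrin-Eph system 2 of 5 A ligands fell, the B ligands divided and 3 of 9 A receptors rose. Of the 5 GPI-anchored A ephrins, Efna3 and Efna4 fell and Efna1, Efna2 and Efna5 were not called. Efna4 measured 12.7, 12.5, 15.4 and 12.9 CPM in ff and 5.48, 5.70, 6.82 and 5.65 CPM in dcKO. No dcKO library exceeded 6.82 CPM and no ff library was under 12.5 CPM, a difference of 2.18-fold (log2 fold change -1.12 ± 0.11 SE, adjusted p = 1.4e-05, edgeR). Efna3 fell from 64.0, 55.6, 65.3 and 55.2 to 34.5, 34.4, 37.7 and 35.7 CPM (-0.71 ± 0.07, adjusted p = 1.4e-05, edgeR), again without overlap. In GENCODE M21 exons of both genes overlap exons of genes with only a provisional name on the opposite strand, and the strand used in counting was not given in the sources used here, so reads of the partners cannot be told apart. In all, 19 members share exon sequence with another gene on either strand. Unc5a (with Hk3), Plxna1, Sema4c, Epha10 and Plxnb1 have a partner on the opposite strand, and Nrp1 is 1 of 5 members with a partner on its own strand, a microRNA gene.

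All 3 transmembrane B ephrins were called. Efnb1, an X-linked gene with roles in cortical progenitors, rose from 75.6, 84.2, 78.8 and 89.7 to 118, 119.7, 108 and 122 CPM (log2 fold change 0.55 ± 0.07 SE, adjusted p = 6.9e-05, edgeR). The groups did not overlap, and the value was 0.64 with sex as a covariate. Efnb2 rose with overlapping groups (0.22 ± 0.06, adjusted p = 0.014, edgeR), a call lost without ff No7 or without ff No17. Efnb3, a midline barrier for corticospinal axons, fell from 272, 273, 277 and 253 to 206, 218, 230.2 and 233 CPM without overlap (-0.23 ± 0.05, adjusted p = 0.0037, edgeR), and did not pass in the test on log2(TPM + 1), at -0.11.

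Among the Eph kinases, 4 of 14 rose and 2 fell. Ephb6, which lacks kinase activity, fell without overlap from 74.8, 68.2, 66.8 and 62.9 to 40.9, 47.0, 49.1 and 50.2 CPM (log2 fold change -0.49 ± 0.06 SE, adjusted p = 0.00012, edgeR). Ephb3, a receptor of B ephrins in commissural axon guidance, rose without overlap from 17.02, 18.6, 17.5 and 16.4 to 24.2, 24.4, 23.4 and 23.2 CPM (0.49 ± 0.07, adjusted p = 0.00017, edgeR). Epha8 rose from 31.7, 27.0, 24.7 and 25.7 to 32.3, 34.1, 41.9 and 37.8 CPM, also without overlap (0.47 ± 0.09, adjusted p = 0.0016, edgeR), but was not called in 1 fit of all 14 libraries (adjusted p = 0.13). Epha10 and Epha4 were higher and Ephb2 was lower with overlapping groups and adjusted p between 0.023 and 0.034 (edgeR), and each of these calls was lost on leaving out at least 4 of the 8 libraries in turn. Epha3, Epha5 and Epha7, receptors of A ephrins, were not called, with log2 fold changes between -0.09 and 0.02.

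**Figure D2:**
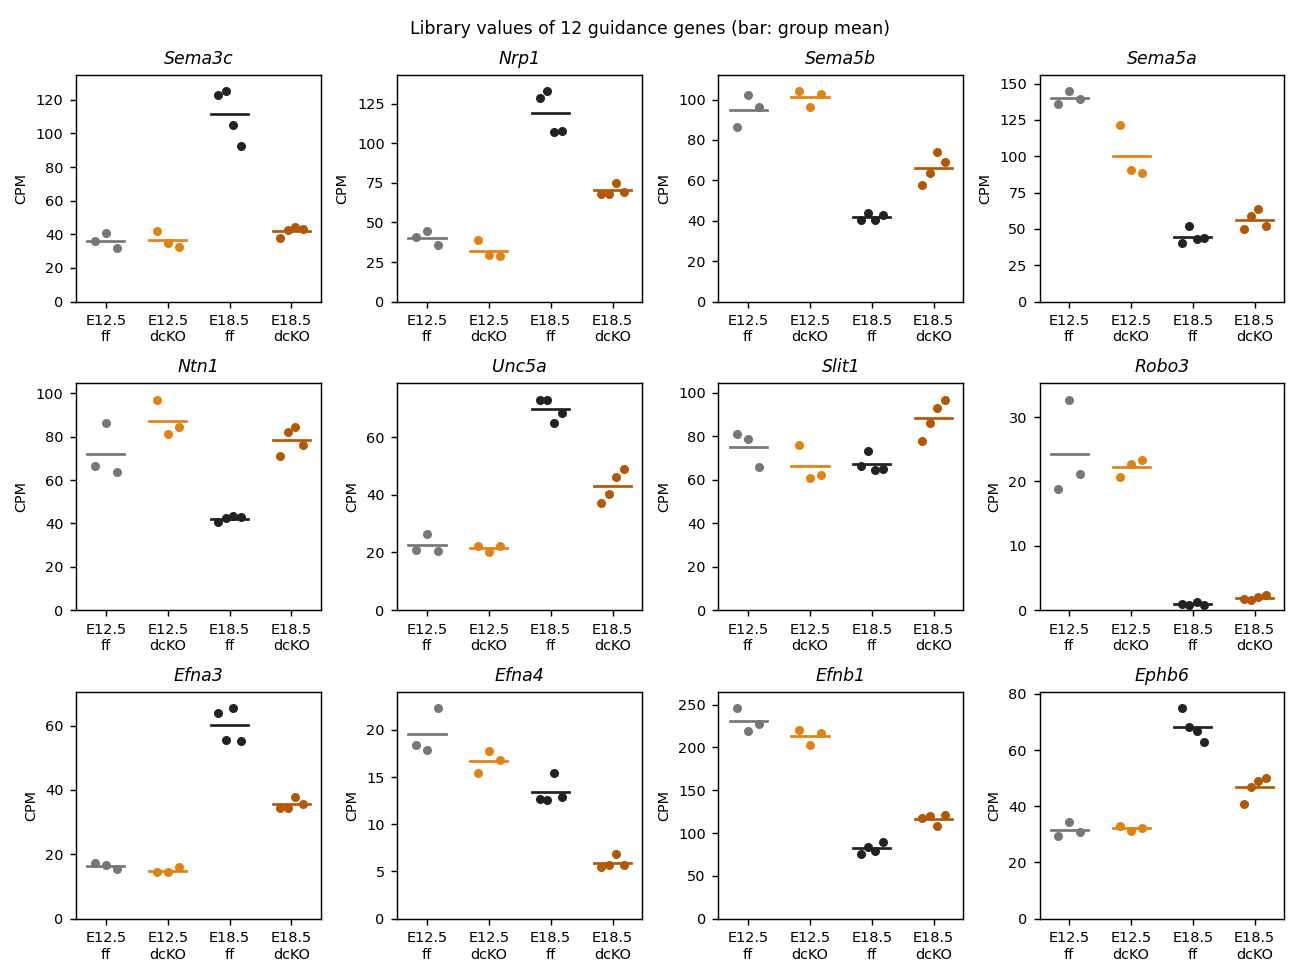
CPM of 12 named members in each of the 14 libraries, with a bar at the group mean. At E18.5 the ff and dcKO points are separate in every panel but that of Sema5a, and Sema3c and Efna3 are higher at E18.5 than at E12.5 in ff.

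Markers of several cell types differed between the same E18.5 libraries, where 15.6% of all genes were called higher and 16.6% lower. Of 12 genes of the ventral telencephalon and interneurons 11 were higher and 0 lower in dcKO, and their summed level was 612.7 to 656 CPM in ff and 985.7 to 1136 CPM in dcKO. Of 9 radial glia genes 7 were higher and 0 lower, with sums of 1298 to 1407 and 1436 to 1569 CPM. Of 7 microglia genes 5 were higher and 0 lower (89.23 to 110.7 and 123.4 to 141.2 CPM), and of 6 Cajal-Retzius genes 4 were higher and 1 lower (351.6 to 405.9 and 450.5 to 533.3 CPM). Of 6 upper-layer neuron genes 1 was higher and 3 lower (1056 to 1168 and 801 to 848.6 CPM), and of 7 deep-layer genes 2 were higher and 5 lower (894.1 to 1060 and 847.2 to 967.3 CPM). None of the genes of these lists was at 0 in any library, and their part in the differences of the guidance genes was not tested. The choroid plexus list had 0 of 8 genes called. Of 5 thalamus genes 2 were higher and 1 lower, and of 5 oligodendrocyte precursor genes 1 was higher and 2 lower. Of 8 endothelium genes 1 was higher and 1 lower, and of 8 genes of meningeal fibroblasts and mural cells 1 was higher and 0 lower. Without dcKO No12, the library almost without Ttr, 11 members were called higher and 18 lower (13.1% and 14.7% of all genes). Plxnb1, Sema6a, Unc5b, Epha10 and Epha4, called higher with all 8 libraries, and Sema6b, called lower, were then no longer called. Other libraries left out gave similar counts, 10 higher and 18 lower without ff No17 (10.5% and 14.8% of all genes). Without ff No7 they were 11 and 15 (10.5% and 14.3%).

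Among other genes of the guidance pathways, more were called lower than higher at E18.5, where 15.6% of all genes were higher and 16.6% lower. Of 20 further cues and receptors 5 were higher and 9 lower (median log2 fold change -0.13); the 5 were Cxcr4, Ackr3, Flrt3, Boc and Cdon, chemokine receptors, hedgehog co-receptors and an adhesion ligand of Unc5 proteins. Of 43 intracellular effectors, which carry the signal to the cytoskeleton, 3 were higher (Nck1, Dock1 and Ngef) and 21 lower (median -0.17). Their summed level was 13610 to 14800 CPM in ff and 10000 to 11540 CPM in dcKO. Under the TPM tests 22 of the 63 genes were called in place of 38, where 20.5% of all genes were higher and 6.23% lower with log2(TPM + 1).

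At E12.5 none of the 71 members passed the test (edgeR; 0.19% of 17853 genes did). At an unadjusted p under 0.05, 13 were lower and 2 higher, where 11.1% of all genes were lower and 8.11% higher. The median log2 fold change was -0.11, against 0.01 over all genes, and 45 members were negative. Groups did not overlap for 16 members (22.5%, against 26.5% of all genes), with dcKO below ff in 12 of them. Among receptors, 8 of 9 plexins, both neuropilins, all 4 Robo receptors and 4 of 5 netrin receptors had negative values. Of the EphA receptors 4 of 9 were negative, and of the EphB receptors 2 of 5. With the length correction described below, 6 of 9 plexins were negative, with a median of -0.05. Both neuropilins, 2 of 4 Robo receptors and 2 of 5 netrin receptors were then negative, the netrin receptors with a median of 0.11. Without the correction, 24 of 34 receptors and 21 of 37 ligands were negative. These ligands included all 3 Slits and 4 of 5 A ephrins.

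The 6 members with the lowest p at E12.5 were all lower in dcKO. Plxnd1, a receptor of Sema3e in vessels and neurons, measured 100.2, 118 and 96.1 CPM in ff No9, No4 and No7 and 75.9, 68.7 and 70.4 CPM in dcKO No2, No6 and No10, the order used for E12.5 throughout. The groups did not overlap (log2 fold change -0.55 ± 0.09 SE, adjusted p = 0.052, edgeR). Plxna2 measured 320.3, 295 and 265 CPM in ff and 236, 166 and 167 CPM in dcKO (-0.63 ± 0.15, adjusted p = 0.095, edgeR). In this gene, and in Sema5a, with 136, 145 and 139 CPM in ff and 122, 90.3 and 88.5 CPM in dcKO (-0.49 ± 0.12, adjusted p = 0.096, edgeR), dcKO No6 and No10 lay farther from ff than dcKO No2 did. Sema4d (-0.43 ± 0.09, adjusted p = 0.076), Epha5 (-0.49 ± 0.11, adjusted p = 0.079) and Epha3 (-0.24 ± 0.08, adjusted p = 0.17, edgeR) complete the 6, each without overlap.

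These E12.5 values ran with gene length. Across 16761 genes the log2 fold change fell with effective length (Spearman's rho -0.437; across 70 members -0.313), and the members were long, with a median at percentile 80.9 of all genes tested. The libraries differed in the same respect: the correlation of a library's deviation with length was 0.0374 in dcKO No2 and -0.434 and -0.497 in dcKO No6 and No10, and 0.0798 to 0.525 in ff. Genes are not independent replicates and these coefficients are descriptions. After a correction for length the members' median was -0.00 (all genes -0.03), 36 were negative, and 11 were lower and 10 higher at an unadjusted p under 0.05. Plxnd1 then passed the test (-0.46, adjusted p = 0.027, edgeR), and Sema5a stood at -0.19 (adjusted p = 0.18). The count of calls depended on the analysis: DESeq2 called 8 members, 1 fit of all 14 libraries 5, and leaving out dcKO No2 gave 7, all of them lower except Epha8 in DESeq2, while leaving out ff No4 gave only Epha8 and Epha10, both higher. Of all genes, 1.66% were called higher and 5.11% lower by DESeq2, 1.79% and 3.8% in the fit of 14 libraries, 0.415% and 2.71% without dcKO No2, and 0.245% and 0.174% without ff No4. At this stage the authors' deposited table had 7 members lower and 0 higher, and 8 members had no adjusted p. Of all its genes with an adjusted p, 10.2% were under 0.05 in either direction. At E18.5 the authors' deposited table had 15 higher and 19 lower, where 32.0% of all genes with an adjusted p were under 0.05.

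**Figure D3:**
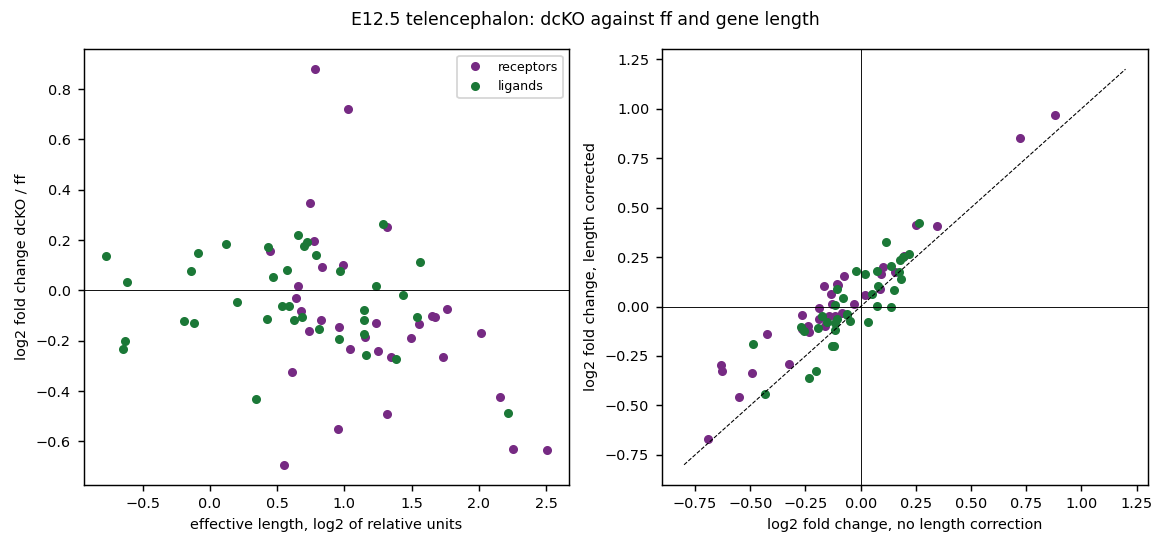
Left, log2 fold change of dcKO over ff at E12.5 against the effective length of the gene, on a log2 scale of relative units, for members with a length; right, the value after correction for length against the value without it. The lowest values on the left belong mostly to long genes and to receptors, and most of the negative points on the right lie above the dashed line of equality.

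The test of the genotype difference at E18.5 minus that at E12.5, in 1 fit of all 14 libraries, called 22 members, 11 in each direction. Of all genes, 7.12% were called more positive and 9.41% more negative at E18.5, beside 15.5% of the members in each direction. The test on log2(TPM + 1) called 13 and 2 (10.3% and 2.32% of all genes). Sema3c had the lowest p (-1.42 ± 0.16 SE, adjusted p = 0.00015, edgeR): at E12.5 it measured 35.8, 40.6 and 31.6 CPM in ff and 41.8, 35.1 and 32.5 CPM in dcKO, with groups that overlapped. Efnb1 (0.62 ± 0.10, adjusted p = 0.00082), Efna4 (-0.93 ± 0.16, adjusted p = 0.0014), Efna3 (-0.63 ± 0.11, adjusted p = 0.0017) and Sema5b (0.59 ± 0.11, adjusted p = 0.0028, edgeR) followed. Efna3 measured 17.2, 16.6 and 15.5 CPM in ff and 14.4, 14.4 and 16.0 CPM in dcKO at E12.5, with overlap (-0.13 ± 0.10, adjusted p = 0.52, edgeR). Its interaction was not called by limma on log2(TPM + 1), at -0.20 (adjusted p = 0.42).

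Sema5a, Ephb6 and Plxnd1 complete the 8 with the lowest p. Sema5a (0.82 ± 0.16, adjusted p = 0.0040, edgeR) had opposite signs at the 2 stages, with a negative value at E12.5 that was not called and a rise at E18.5. Plxnd1 (0.62 ± 0.13, adjusted p = 0.0057, edgeR) stood at -0.55 at E12.5 and at 0.11 ± 0.08 at E18.5 (adjusted p = 0.28), neither of them called. For both the length correction left the interaction called, at 0.53 and 0.51. Ephb6 (-0.55 ± 0.11, adjusted p = 0.0047, edgeR) measured 29.3, 34.5 and 30.7 CPM in ff and 32.9, 31.3 and 32.3 CPM in dcKO at E12.5, and its interaction was not called by limma on log2(TPM + 1) (-0.39, adjusted p = 0.066). Of the 22 calls, 15 held with each of the 14 libraries left out in turn and 8 in every analysis run.

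**Figure D4:**
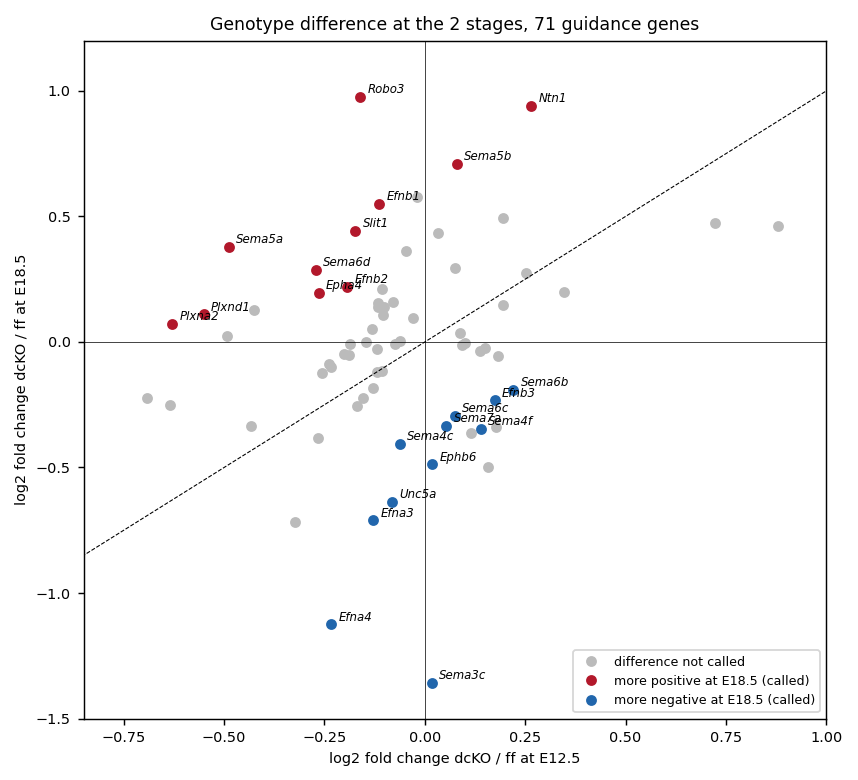
Log2 fold change of dcKO over ff at E12.5 (horizontal) and at E18.5 (vertical) for the 71 members; coloured points passed the interaction test, and the dashed line marks equal differences. Sema3c and Efna4 lie lowest, Sema3c with almost no difference at E12.5.

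Between the stages, 38 members were higher and 23 lower at E18.5 than at E12.5 in ff (edgeR; 31.5% and 29.9% of all genes), and 10 were not called. In dcKO the counts were also 38 and 23 (30.9% and 31.3% of all genes). With the length correction, 32 members were higher and 29 lower in ff (28.9% and 34.9% of all genes), so rises exceeded falls by less but still did. Stage and dissected tissue changed together and cannot be told apart. Of 5 thalamus genes, 4 were lower and 0 higher at E18.5 than at E12.5 in ff (median log2 fold change -4.46). Their summed level in ff spanned 310.9 to 466.2 CPM at E12.5 and 43.96 to 50.74 CPM at E18.5. The part of the dissected tissue in the stage differences of the members was not tested. Without the length correction, the median over members was 0.32 in ff, against -0.00 over all genes. The semaphorin system then rose most often, 21 of 31 genes, while in the ephrin-Eph system 10 rose and 11 fell.

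Levels per length (TPM) had a B ephrin first at both stages. At E12.5 ff libraries held 134 ± 12.1 TPM of Efnb1 (mean ± SD, n = 3), whose libraries overlapped with those of Plxnb2, at 119 ± 9.16 TPM. Ephb2, Efnb3 and Efnb2 came next, at 97.7 ± 14.6, 95.1 ± 11.5 and 86.9 ± 6.41 TPM, and overlapped too. At E18.5 Efnb3 led with 157 ± 4.54 TPM (n = 4), followed by Efnb2 with 117 ± 12.1 TPM, whose values did not overlap with those of Efnb3 but did with those of Sema6c, at 105 ± 3.77 TPM. Efnb1 stood at 49.0 TPM in E18.5 ff. At the low end Epha1, Plxnb3, Robo3 and Ntn5 stood under 1 TPM in E18.5 ff. In dcKO at E18.5 Efnb3, at 145 ± 8.02 TPM, and Efnb2, at 145 ± 12.1 TPM (n = 4), did not differ beyond their spread.

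The members named for a rise with stage in ff were taken by rule from each of the 4 systems. Sema7a rose 3.83-fold (log2 fold change 1.94 ± 0.10 SE, adjusted p = 8.8e-11, edgeR), from 31.7, 31.1 and 26.6 to 117, 105, 123 and 107 CPM, and Sema4f by 1.80 ± 0.09. Unc5d, a receptor of migrating upper-layer neurons, rose 4.08-fold, from 18.02, 16.7 and 12.3 to 62.7, 73.7, 57.9 and 53.9 CPM (2.03 ± 0.16, adjusted p = 3.5e-08, edgeR), and Unc5a by 1.61 ± 0.11. Efna3 rose by 1.88 ± 0.08, Epha6 by 2.11 ± 0.20, Robo2 by 0.95 ± 0.10 and Slit3 by 0.69 ± 0.16 on the log2 scale (adjusted p at most 0.0016, edgeR).

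The members named for a fall with stage in ff were taken in the same way. Robo3 fell 24.6-fold, from 18.84, 32.7 and 21.2 to 0.991, 0.848, 1.34 and 0.828 CPM (log2 fold change -4.62 ± 0.21 SE, adjusted p = 2.2e-11, edgeR). Sema5a fell by 1.65 ± 0.11, Sema5b by 1.19 ± 0.08, Slit2 by 1.34 ± 0.10, Ntn4 by 1.21 ± 0.08 and Dcc by 1.13 ± 0.12 on the log2 scale. Ephb4, a receptor of venous endothelium, fell by 1.69 ± 0.14, and Epha1 fell by 2.57 ± 0.48 from a low level (adjusted p at most 0.0002 for each of these, edgeR).

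Stage differences in the 2 genotypes are set side by side here for 4 members named above. Sema3c rose 3.09-fold with stage in ff (1.63 ± 0.12, adjusted p = 8.3e-09, edgeR) and stood at 0.21 in dcKO (adjusted p = 0.13). Ntn1 fell with stage in ff (-0.78 ± 0.10, adjusted p = 2.3e-06, edgeR) and stood at -0.15 in dcKO (adjusted p = 0.18). Slit1 stood at -0.15 in ff (adjusted p = 0.19) and rose by 0.42 in dcKO (adjusted p = 0.0011, edgeR). Efna4 fell in both genotypes, with -0.55 in ff and -1.48 in dcKO. The stage contrasts of ff and dcKO share no library, and their difference is the interaction given above, called for all 4 of these genes.

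**Figure D5:**
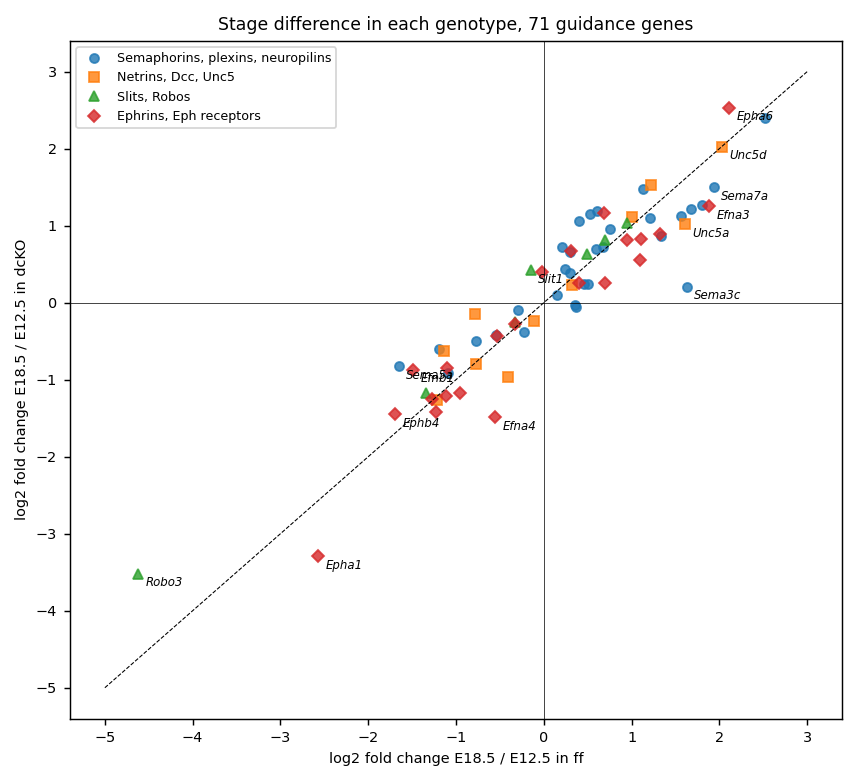
Log2 fold change from E12.5 to E18.5 in ff (horizontal) and in dcKO (vertical) for the 71 members, with symbols by system; the dashed line marks equal change. Sema3c lies far below the line at 1.63 and 0.21, Efna4 below it, and Robo3 at the lower left.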

How the data were processed

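Poly(A) RNA of 14 mouse forebrain libraries was sequenced after stranded library preparation, per the labels. Trim Galore, STAR, RSEM and DESeq2 are named in the submitters' processing notes, without versions; the strand used in counting was not given in the sources used here. The authors deposited expected counts per gene and TPM for each stage, and 2 tables of their own comparison with log2 fold changes and p-values. Columns were matched to samples by the number and genotype in the title; the library name in the description of 11 of the 14 samples belongs to another group, and titles were followed.

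Expected counts were rounded, filtered with filterByExpr, scaled by TMM and tested with edgeR 4.0.16 (quasi-likelihood, robust; R 4.3.3), each stage on its own (17853 and 17974 genes) and, for the interaction and the stage difference, in 1 fit of 14 libraries (19327 genes). P-values were Benjamini-Hochberg adjusted over all genes tested, with a threshold of 0.05. The CPM printed come from the 14-library scaling; a fold change and its standard error come from the fit. Symbols were found for 56131 of 56941 IDs. Alternatives used limma 3.58.1 on log2(TPM + 1) or log2(TPM + 0.1), limma-voom, DESeq2 1.42.0, other filters and scaling, sex as a covariate, an offset for the effective length implied by the deposited counts and TPM, and each library left out in turn. The code was tested on simulated data. Members with full statistics were chosen by rule: the 6 of lowest p at E12.5; at E18.5, per system, up to 4 called members in each direction with the largest change, at least 1 CPM and no overlap; the 8 interaction calls of lowest p; and per system 2 stage changes in each direction. Other members are named as members of a family count, ends of a range or partners. The members, lists and rules were chosen with earlier results of these data known.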

Additional observations from a re-analysis of the deposited data

Results flagged for a closer look

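Among the 35 named members, 70 groups of 4 libraries were examined for a single library standing apart, and 5 held one, where chance gives about 1 in 20. Efna4 was highest at 15.4 CPM in E18.5 ff No17 and at 6.82 CPM in E18.5 dcKO No12. Epha3 reached 116.0 CPM and Plxna2 444 CPM in E18.5 ff No8, and Ephb4 reached 22.3 CPM in E18.5 ff No18.

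The genotype difference itself differed between the stages for 22 members (E18.5 minus E12.5, log2 scale, edgeR interaction test). Of all genes, 7.12% were called more positive and 9.41% more negative at E18.5. With each of the 14 libraries left out in turn, 15 of the 22 calls always held. Sema6c and Efnb2 held in only 4 of these 14 fits, Epha4 in 6 and Sema7a in 7. The test on log2(TPM + 1) called 13 members more positive and 2 more negative (10.3% and 2.32% of all genes). More negative at E18.5 were the ligands Sema3c (-1.42), Efna4 (-0.93), Efna3 (-0.63), Sema4f (-0.53), Sema6b (-0.46), Efnb3 (-0.45), Sema7a (-0.44), Sema6c (-0.41) and Sema4c (-0.39), and the receptors Unc5a (-0.59) and Ephb6 (-0.55). More positive were the ligands Sema5a (0.82), Ntn1 (0.63), Efnb1 (0.62), Sema5b (0.59), Slit1 (0.57), Sema6d (0.51) and Efnb2 (0.37), and the receptors Robo3 (1.10), Plxna2 (0.66), Plxnd1 (0.62) and Epha4 (0.41).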

How the results depend on the processing

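At E12.5, where no member was called, 2 were called with no filter on low counts, 8 with the DESeq2 Wald test, 1 with limma-voom, 1 with the length correction, 5 with 1 fit of all 14 libraries, and 0 to 7 with a library left out (7 without dcKO No2, 2 without ff No4). Of all genes, 0.151% were higher and 0.706% lower with no filter, and 1.66% and 5.11% with DESeq2. The shares were 0.314% and 0.835% with limma-voom, 0.0448% and 0.499% with the length correction, and 1.79% and 3.8% in the fit of 14 libraries. They were 0.415% and 2.71% without dcKO No2, and 0.245% and 0.174% without ff No4. At E18.5 the 16 members called higher became 7 in 1 fit of all 14 libraries (10.4% of all genes). With a library left out they became 10 to 16 (10 without ff No17, 10.5% of all genes). The 17 called lower became 7 with log2(TPM + 1) and 7 with log2(TPM + 0.1), with 6.23% and 6.19% of all genes lower. With a library left out they became 15 to 19, with 12.9% to 17.3% of all genes lower. With sex as a covariate, 12 were called higher and 13 lower (12.9% and 13.7% of all genes). The calls of Sema4g, Sema6a, Sema6b, Ntng1, Robo3, Epha10, Epha4 and Ephb2 were then lost. The 38 calls among other guidance pathway genes became 22 in both TPM tests. With log2(TPM + 1), 20.5% of all genes were higher and 6.23% lower. Interaction calls in the negative direction went from 11 to 17 without E12.5 ff No4, while the share of all genes went from 9.41% to 8.34%. Those in the positive direction went from 11 to 7 without E12.5 dcKO No6 or without E12.5 dcKO No10. Over all genes the positive share also fell, from 7.12% to 3.43% and 3.34% in these fits. The causes were not tested. No value reported here reversed its direction while called. No paired analysis was possible because the genotypes compared share no replicate numbers. E12.5 ff No9 and E18.5 dcKO No2, the shallow libraries, limit the precision for members near 1 CPM.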
